A study of Drosophila melanogaster with 2 samples.

Results

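The genes of the mitochondrial ribosome are the 73 protein-coding genes on the main chromosome arms of Drosophila melanogaster whose symbol starts with mRpL or mRpS, of 13945 protein-coding genes in the Ensembl annotation. By their symbols alone, 47 were counted as large-subunit genes (mRpL) and 26 as small-subunit genes (mRpS). The subunit named below is that of the symbol and was not checked otherwise. They were examined for binding of HLH3B, a Tal1-type member of the basic helix-loop-helix (bHLH) class. The data came from chromatin immunoprecipitation sequencing of 1 group of embryos with 2 biological replicates. The flies of strain HLH3B-GFP carried a transgene for an HLH3B-eGFP fusion, an antibody against GFP was used, and the material was whole embryos aged 8 to 24 h. The whole-embryo material mixes all cell types, the labels do not name the promoter that drives the fusion, and control embryos were not analysed here. The family was selected on these binding data, in which mRpL41 was already known to carry a strong site, so all counts below are descriptions and no test was made.

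Mitochondria translate the few proteins encoded by their own DNA, all of them parts of the respiratory chain or ATP synthase, on ribosomes of bacterial descent. The proteins of these ribosomes are encoded in the nucleus, made in the cytosol and imported. Some have a counterpart in the bacterial ribosome, and others were gained in the mitochondrial lineage. bHLH proteins bind DNA as dimers, usually at E-boxes of the form CANNTG, and Tal1-type proteins are known in vertebrates for their work with GATA factors in blood cells.

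The windows below reach 50 bases to either side of the binding summit at the promoters of 8 members, in falling order of peak signal, and they are shown because each summit lay between the starts of neighbouring genes. Of 12 such members they are the strongest after mRpL41, whose window is described with the motifs but not printed. They were read from the Release 6 (dm6) genome on the strand of the member gene, 5′ to 3′. Capitals mark matches, on either strand, to the 7 motifs that were searched, which were TATCGATA (the DRE), GGTCACACT (the core of promoter motif 1), the E-box CAGCTG, the E-box CAGATG, the E-box CACGTG, the GATA-type motif GATAA and the AT-only motif TTAAAA. Matches to TTAAAA can overlap each other on the 2 strands, and a DRE followed by A also holds GATAA.
mRpS10, chr3R:15229485-15229585, plus strand: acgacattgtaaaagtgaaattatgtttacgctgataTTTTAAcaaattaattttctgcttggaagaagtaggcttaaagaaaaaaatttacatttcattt
mRpS23, chr2L:13835414-13835514, minus strand: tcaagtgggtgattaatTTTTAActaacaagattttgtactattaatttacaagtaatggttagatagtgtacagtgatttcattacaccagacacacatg
mRpL20, chr3L:13018106-13018206, minus strand: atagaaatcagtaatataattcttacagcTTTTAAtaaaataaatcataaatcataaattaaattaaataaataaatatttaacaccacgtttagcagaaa
mRpL24, chr2L:4945423-4945523, minus strand: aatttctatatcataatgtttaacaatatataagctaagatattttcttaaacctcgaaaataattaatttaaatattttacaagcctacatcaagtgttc
mRpS2, chr2L:4850512-4850612, minus strand: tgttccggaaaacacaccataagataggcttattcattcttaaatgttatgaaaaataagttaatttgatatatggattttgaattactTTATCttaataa
mRpL37, chr3R:10784171-10784271, minus strand: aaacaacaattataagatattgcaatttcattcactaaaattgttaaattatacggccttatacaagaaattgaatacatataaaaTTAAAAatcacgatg
mRpL32, chr3R:31252713-31252813, plus strand: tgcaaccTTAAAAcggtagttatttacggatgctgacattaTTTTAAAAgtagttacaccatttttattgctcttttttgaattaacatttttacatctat
mRpL39, chr3L:14999790-14999890, minus strand: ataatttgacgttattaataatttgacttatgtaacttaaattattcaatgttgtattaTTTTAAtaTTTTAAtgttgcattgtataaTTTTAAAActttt
All of the capitals were TTAAAA or its complement TTTTAA in 6 of the 8 windows. The mRpS2 window held a single GATAA on the opposite strand, and the mRpL24 window held none of the searched motifs. Over these 8 windows, the content of G and C ran from 14.9% at mRpL39 to 29.7% at mRpS23.

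A gene was counted as having a site when a peak summit fell inside it or at most 2000 bp upstream of it. In the conservative set, the authors' list of 3846 peaks that repeated between the replicates, 19 of the 73 members had a site. That share was 26.0% (Wilson 95% interval 17.3 to 37.1%, counting error only), beside 23.1% of all protein-coding genes, so the members lay close to that background. The members are short, with a median length of 909 bp against 2166 bp for all protein-coding genes. Among other genes weighted to the members' lengths the share was 12.8%, or 9.34 genes where 19 were counted. Where the other genes were matched instead on the number of gene starts nearby, the share was 23.7%, which lay inside the members' interval. The other lists gave 27 members (37.0%, interval 26.8 to 48.5%) in the larger series-level set against a background of 30.6%, 18 members (24.7%, 16.2 to 35.6%) in replicate 1 against 23.2%, and 20 members (27.4%, 18.5 to 38.6%) in replicate 2 against 22.5%. In all, 12 members had a site in each of the 4 lists, 29 had one in at least 1 list and 44 had one in none. Shares over all protein-coding genes were taken for single lists only, so these combined counts have no background beside them.

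The family was then split by subunit and by origin. The origin named here and below was set from the number in the symbol and was not checked otherwise. mRpL47, mRpS24 and mRpS28 were added by name to those with a bacterial counterpart. A conservative site was present at 13 of 47 large-subunit genes (27.7%) and at 6 of 26 small-subunit genes (23.1%). Of the 45 members with a bacterial counterpart 14 had a site (31.1%), and of the 28 mitochondria-specific members 5 had one (17.9%). The difference between these last shares rested on few genes and was not tested.

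Promoter sites, with a summit within 1000 bp of an annotated transcript start of the gene, were counted at 14 members in the conservative set. This was 19.2% (Wilson 95% interval 11.8 to 29.7%), beside 16.9% of all protein-coding genes and 9.97% of length-matched genes. Large-subunit genes made up 9 of the 14 and small-subunit genes 5, which were 19.1% and 19.2% of their classes. The 14 sites fell into strong and weak sites with a gap between them: 7 lay at signal ranks 4 to 262 of the 3846 peaks, and the next began at rank 1606. The 385 strongest peaks of the set thus included 7 of the members' 14 promoter sites, against 15.3% of the promoter sites of all protein-coding genes. As a share of genes this was 9.59% of the 73 members, beside 2.58% of all protein-coding genes. The bound on rank was chosen after the values were seen. Each of the 7 strong sites passed the authors' threshold in both replicates, and of the 7 weak ones 2 did. The peak signal is the authors' value, its scale is not given in the files, and it is given here to order and describe peaks inside 1 list, so sizes in different lists are not compared.

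**Figure D1:**
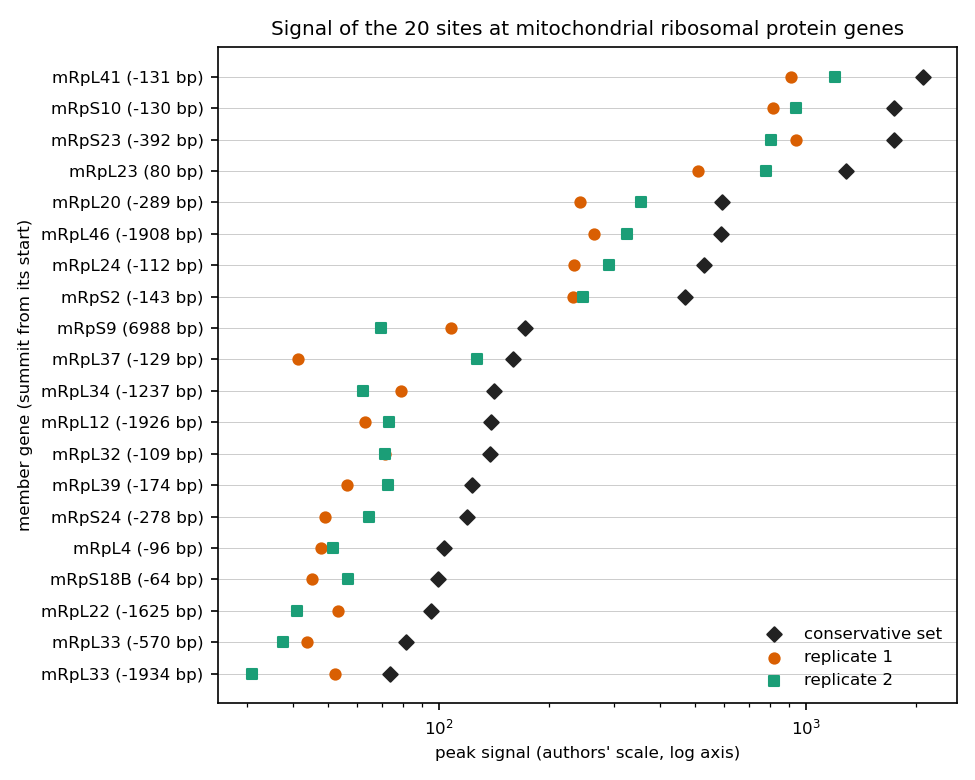
Peak signal (authors' scale, log axis; sizes are comparable inside a list only) of the 20 conservative sites at 19 mitochondrial ribosomal protein genes, with the signal of the matching peak in replicate 1 and replicate 2. The number after each gene is the distance of the summit from its start in bp; 8 sites lie at or above 470 in the conservative set and the other 12 at or below 172, and at mRpL32 the replicate symbols coincide.

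The strongest site belonged to mRpL41, which encodes a mitochondria-specific protein of the large subunit (gene on the minus strand of 2R, 15217024 to 15217617). Its peak spanned chr2R:15217590-15217917 and ranked 4 of 3846. The signal was 2093 in the conservative set, 911 in replicate 1 and 1201 in replicate 2. The summit lay in intergenic DNA 131 bp upstream of the start, and the mRpL41 start was the nearest to it.

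Strong promoter sites were present at 3 small-subunit genes. mRpS10, the counterpart of a protein in the head of the bacterial small subunit (3R, plus strand, 15229665 to 15230516), had its peak at chr3R:15229380-15229689, rank 9. Its signal was 1745, with 814 in replicate 1 and 939 in replicate 2. The summit lay 130 bp upstream of mRpS10 and 127 bp from the start of Art3, an arginine methyltransferase gene on the other strand, so it sat at the middle of the 257 bp between their starts. mRpS23, a mitochondria-specific protein (2L, minus strand, 13834250 to 13835072), had its peak at chr2L:13835316-13835628, rank 10. Its signal was 1735, with 939 in replicate 1 and 806 in replicate 2. Here the summit lay 392 bp upstream of mRpS23 and 100 bp from CenG1A, an Arf GTPase-activating protein gene, whose start was the nearer. mRpS2, whose bacterial counterpart is a late-assembling protein of the small subunit (2L, minus strand, 4849439 to 4850419), had its peak at chr2L:4850452-4850678, rank 262. Its signal was 470, with 232 in replicate 1 and 247 in replicate 2. The summit lay 143 bp upstream of mRpS2 and 79 bp from Mon1, an endosomal trafficking gene.

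The remaining strong promoter sites were at large-subunit genes with bacterial counterparts. mRpL23, whose counterpart lines the exit of the peptide tunnel (3L, minus strand, 2372844 to 2373704), had a peak at chr3L:2373444-2373752, rank 23. Its signal was 1288, with 509 in replicate 1 and 781 in replicate 2. It had the only promoter summit downstream of a start, in the 5′ UTR of mRpL23, 80 bp from an annotated start and 106 bp from the 5′ end of the gene, and the start of the divergent CG9004 was 130 bp away. mRpL20, the counterpart of an early assembly protein (3L, minus strand, 13017149 to 13017867), had a peak at chr3L:13018021-13018271, rank 168. Its signal was 592, with 243 in replicate 1 and 356 in replicate 2. The summit was 289 bp upstream of mRpL20 and 110 bp from Icmt, a methyltransferase of prenylated proteins. mRpL24, also the counterpart of an early assembly protein (2L, minus strand, 4944256 to 4945361), had a peak at chr2L:4945364-4945625, rank 214. Its signal was 528, with 234 in replicate 1 and 291 in replicate 2. The summit was 112 bp upstream of mRpL24 and 106 bp from betaggt-I, a prenyltransferase subunit. All 7 strong sites were thus high in both replicates, at ranks 8 to 300 among the replicate 1 candidates and 4 to 261 among those of replicate 2.

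The 7 weak promoter sites had conservative signals of 81.3 to 159. mRpL37, a mitochondria-specific protein, had the highest of them (3R, 10784053 to 10784388, rank 1606) at 159, with 41.3 in replicate 1 and 127 in replicate 2. It passed the threshold in replicate 2, where it ranked 822 among the candidates, and missed it in replicate 1, where it ranked 5391. mRpL32, the counterpart of bacterial L32 (3R, 31252595 to 31252930, rank 1944), had a signal of 138, with 71.5 and 71.2 in replicates 1 and 2. mRpL39, a mitochondria-specific protein (3L, 14999672 to 15000007, rank 2204), had a signal of 123, with 56.1 and 72.6. mRpL32 and mRpL39 were the weak sites that passed in both replicates. The summits of these 3 genes lay 129 bp (mRpL37), 109 bp (mRpL32) and 174 bp (mRpL39) upstream of their starts.

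The other weak sites passed in replicate 2 or in neither. mRpS24, known in humans as the counterpart of bacterial S3 (3R, 24163655 to 24163990, rank 2285) had a signal of 119, with 49.1 and 64.6 in replicates 1 and 2. mRpL4, whose counterpart reaches into the peptide tunnel (2L, 16329060 to 16329395, rank 2753), had a signal of 103, with 47.8 and 51.4. mRpS18B, 1 of 3 members related to bacterial S18 (2L, 20097149 to 20097484, rank 2845), had a signal of 99.5, with 45.1 and 56.5. These 3 missed the threshold in replicate 1, and their summits lay 278 bp (mRpS24), 96 bp (mRpL4) and 64 bp (mRpS18B) upstream. mRpL33, a small protein of the large subunit (X, 4322633 to 4322968, rank 3400), had a signal of 81.3, with 43.8 and 37.6 in replicates 1 and 2, lay 570 bp upstream and passed in neither replicate. It was the only one of the 20 sites at members that passed in neither, although each of the 20 was matched by a candidate summit no more than 100 bp away in either replicate and also stood in the larger series-level set.

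The promoter summits lay mostly just upstream of the members' starts. Upstream summits made up 13 of the 14 (92.9%, against 84.1% for all protein-coding genes with a promoter site). The median distance was -130.5 bp, negative being upstream (-147 bp for all protein-coding genes), the range ran from 570 bp upstream to 80 bp downstream, and 9 of the 14 lay 60 to 180 bp upstream. Intergenic DNA held 12 of them, and the other 2 lay in a 5′ UTR, that of mRpL23 itself and, at mRpL33, that of norpA. The member's own start was the nearest start in 6 of 14 (42.9%), namely at mRpL41, mRpL23, mRpL37, mRpL32, mRpL4 and mRpS18B. For all protein-coding genes with a promoter site that share was 69.0% (1628 of 2359). The sets were not alike, as all 14 members had a divergent neighbour, defined below, against 1276 of the 2359 genes. The part of this pairing in the difference was not tested.

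Most of the members had a close neighbour on the other strand. A divergent neighbour was taken as a protein-coding gene on the other strand whose start lies 0 to 1000 bp upstream. Such a neighbour was present at 56 of the 73 members (76.7%), with a median gap of 287.5 bp and a range of 20 to 793 bp. The same held for 33.3% of all protein-coding genes, for 58.7% of cytosolic ribosomal protein genes and for 42.9% of respiratory chain and ATP synthase genes. All 14 members with a conservative promoter site were among the 56, which makes 25.0% of the divergent members (Wilson 95% interval 15.5 to 37.7%). All divergent protein-coding genes gave 27.4% (1276 of 4650), a share inside the members' interval. The count was 0 of the 17 members with no such neighbour (Wilson 95% interval 0 to 18.4%), beside 11.7% of all such protein-coding genes (1083 of 9295). At this number of genes the difference from that background was not detectable. The pairs were looked at after the nearest starts had been seen.

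**Figure D2:**
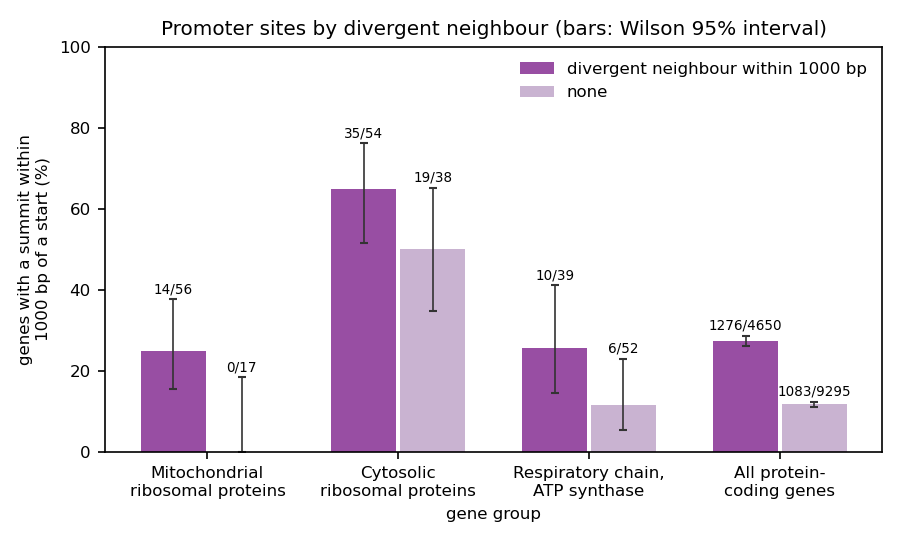
Percent of genes with a conservative summit within 1000 bp of a start, for genes with and without a divergent protein-coding neighbour within 1000 bp, in 4 gene groups; bars are shares, error bars Wilson 95% intervals, and the numbers above give genes with a site over genes. Divergent members (25.0%) and all divergent protein-coding genes (27.4%) stand at similar heights, while 0 of 17 members without such a neighbour had a site, with a Wilson bar that reaches 18.4%.

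The summit lay between the starts of the pair in 12 of the 14 members (85.7%), against 843 of 1276 divergent protein-coding genes with a promoter site (66.1%). The exceptions were mRpL23, whose start lies 24 bp from that of CG9004, and mRpL33, whose summit lay beyond the start of norpA, the phospholipase C of the photoreceptor. Further partners were CG8079 at mRpL41 (gap 762 bp) and qless, an enzyme of coenzyme Q synthesis, at mRpL32 (264 bp). Others were the proteasome subunit gene Prosbeta2 at mRpL39 (285 bp), the Wnt pathway gene Apc2 at mRpS24 (421 bp), CG4440 at mRpL4 (793 bp) and Kua at mRpS18B (328 bp). No member was paired with another member. Peak data cannot assign a summit to one gene of a pair, and RNA was not analysed here.

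**Figure D3:**
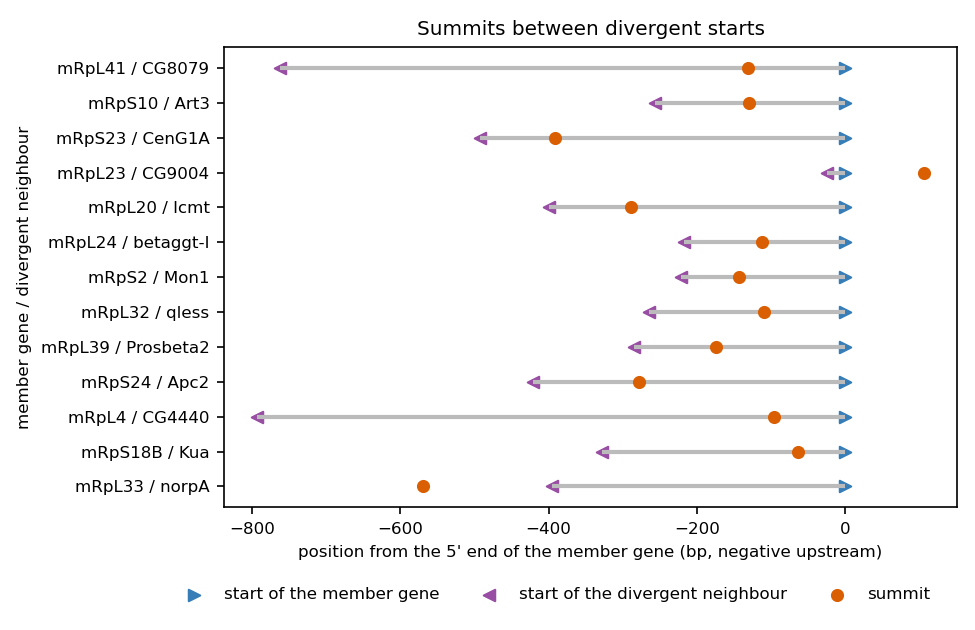
Position in bp, from the 5′ end of the member gene, of the conservative summit (circle) and of the start of the divergent neighbour (left-pointing triangle), for the members with a promoter site other than mRpL37, in falling order of signal; negative values are upstream of the member. The summit lies on the grey bar joining the starts in each pair drawn except those of mRpL23 and mRpL33.

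Distal sites, over 1000 bp from any start of the member, numbered 6, and at 5 genes they were the only site. In each of the 6 another gene's start was nearer, at 102 to 853 bp. mRpL46, a mitochondria-specific protein, had the strongest (3L, 1775362 to 1775640, rank 170), at a signal of 589, against 265 and 325 for replicates 1 and 2. Its summit lay 1908 bp upstream of mRpL46 but 102 bp from PolD2, a subunit of DNA polymerase delta. mRpS9 spans 13391 bp, and its site (3R, 7895511 to 7895846, rank 1426) was intronic, 143 bp from the start of wtrw, a TRP channel gene that overlaps it, at 172, against 108 and 69.6 for replicates 1 and 2. mRpL34, a small bacterial-type protein of the large subunit, had a site in an intron of the dystroglycan gene Dg (2R, 16097543 to 16097878, rank 1900), 1237 bp upstream, at 141, against 78.8 and 62.0 for replicates 1 and 2.

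These 3 distal sites passed the threshold in both replicates. The other distal sites were weaker and passed in 1 replicate only, replicate 1 for mRpL12 and mRpL33 and replicate 2 for mRpL22. mRpL12, which encodes the stalk protein that binds translation factors, had a site 1926 bp upstream and 156 bp from GNBP3, a fungal recognition gene (3L, 8954697 to 8955032, rank 1929). Its signal was 139, with 62.8 in replicate 1 and 73.1 in replicate 2. mRpL22, whose counterpart also lines the peptide tunnel, had a site in an intron of the integrin gene if (X, 16782140 to 16782475, rank 2979), 1625 bp upstream, with a signal of 95.1, 53.2 and 41.0. The further site of mRpL33 lay in an intron of norpA (X, 4323997 to 4324332, rank 3624), 1934 bp upstream, with a signal of 73.4, 52.2 and 30.9. Over all 20 sites, 14 were nearer to another gene, 12 of them within 250 bp of its start. If each summit is given to its nearest start alone, 6 of the 73 members keep a site, a share below the 14.2% of all protein-coding genes. This difference was not tested.

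The edge of the window and the threshold set the members counted. The farthest sites inside were those of mRpL33 (1934 bp), mRpL12 (1926 bp) and mRpL46 (1908 bp), and the first outside were 2808 bp upstream of mRpL36 and 3690 bp upstream of mRpS31. Each conservative peak had a −log10 IDR (irreproducible discovery rate, the authors' measure of how poorly a rank repeats) of 2.00 or more. Of the 59 members with no promoter site, 44 had a candidate peak within 1000 bp, and the median of their best −log10 IDR was 0.344. The candidate list held 89714 peaks. No share over all protein-coding genes stands beside the 44, so that count says nothing particular to the members. The best candidates left out were at mRpS33 (1.99), mRpS18A (1.86), mRpL16 (1.73), mRpS21 (1.65), mRpS29 (1.61), mRpS7 (1.55) and mRpL11 (1.38).

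A site in another list but not in the conservative set was present at 10 members, a count with no share over all protein-coding genes beside it. mRpS6, the counterpart of a small-subunit platform protein, had the strongest, with a signal of 154 and rank 1737 of 5812 in the larger series-level set, 82 bp upstream of its start. Its replicate 1 signal was 73.7, and replicate 2 held no candidate within 1000 bp of mRpS6. mRpS26 had 87.0 in the larger set (199 bp upstream), and mRpS33 had 77.1 (592 bp upstream). The strongest candidates within 1000 bp of the mRpS26 start were 33.9 in replicate 1 and 50.9 in replicate 2. At mRpS33 they were 36.9 and 34.4, and none of these 4 was matched to the summit in the larger set. mRpL55 had 75.7 in that set at 1466 bp upstream, nearer to CG6040 (590 bp). mRpL11, the counterpart of the protein at the base of the stalk, had 74.2 in that set and 46.2 in replicate 2, 268 and 264 bp upstream. The remaining ones were mRpL21, mRpL48, mRpS16, mRpS18A and mRpS21, with sites 57 to 226 bp upstream in 1 or 2 lists each. Another gene's start was nearer, at 1 to 180 bp, for mRpL11, mRpL21, mRpL48, mRpS16 and mRpS18A. The member's own start was the nearest for mRpS6, mRpS21, mRpS26 and mRpS33.

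No list held a site for the other 44 members. The large-subunit members with none were mRpL1, mRpL2, mRpL3, mRpL9, mRpL10, mRpL13, mRpL14, mRpL15, mRpL16, mRpL17, mRpL18, mRpL19, mRpL27, mRpL28, mRpL30, mRpL35, mRpL36, mRpL38, mRpL40, mRpL42, mRpL43, mRpL44, mRpL45, mRpL47, mRpL49, mRpL50, mRpL51, mRpL52, mRpL53 and mRpL54. The members with an mRpS symbol and none were mRpS5, mRpS7, mRpS11, mRpS14, mRpS17, mRpS18C, mRpS22, mRpS25, mRpS28, mRpS29, mRpS30, mRpS31, mRpS34 and mRpS35. By arm, sites were at 5 of 12 members on 2L, 2 of 12 on 2R, 5 of 17 on 3L, 5 of 21 on 3R and 2 of 11 on X.

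The windows at the 14 promoter summits were on average poorer in G and C than those of other genes, with exceptions. The windows, 50 bases to either side of the summit, held 26.2% ± 8.66 G and C (SD, n = 14), against 33.2% ± 10.2 at the 1923 promoter summits of all protein-coding genes. TTAAAA was present in 10 of the 14 windows (71.4%), against 36.9% of those summits, and GATAA in 2 (14.3%, at mRpL41 and mRpS2), against 23.1%. The mRpL41 window held both motifs, at 23.8% G and C. The exceptions in base content were mRpL4 at 46.5% and mRpL33 at 40.6%, both above the mean of all promoter summits, and neither held a searched motif. None of the 14 held the DRE, the motif 1 core or any of the 3 E-boxes searched. This allows a share of up to 21.4% (3 counts of 14), while 0.468% to 3.85% of all promoter summits held each of them. Other forms of CANNTG were not searched, so the presence of E-boxes in general was not measured. The printed mRpS23 and mRpL24 windows hold such a form, CAAGTG, in lower case. At its 3′ end the mRpS23 window also holds a different form, in lower case too. TTAAAA was common at members whether or not they had a site: in windows centred 100 bp upstream of the start it was present in 10 of 14 members with a promoter site (71.4%) and in 32 of 59 without (54.2%). For all protein-coding genes the share in such windows was 27.5%, for cytosolic ribosomal protein genes 26.1% and for respiratory genes 40.7%. Among genes with a divergent neighbour it was 55.4% of 56 members and 35.5% of 4650 protein-coding genes. Their G and C content was 30.7% ± 8.28 and 34.2% ± 9.69. Among genes without such a neighbour the share was 64.7% of 17 members and 23.6% of 9295 protein-coding genes. Base content moved with the motif, at 30.8% ± 8.89 G and C in the members' upstream windows and 37.6% ± 10.9 in those of all protein-coding genes, and its part in the result was not tested.

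The cytosolic ribosomal protein genes, which supply the ribosome of the cytosol, had a site at 55 of 92 in the conservative set (59.8%, Wilson 95% interval 49.6 to 69.2%), an interval that did not meet that of the mitochondrial family in this set. In replicate 2 the intervals overlapped, at 37.9 to 57.9% and 18.5 to 38.6%. Their promoter sites were of middling strength, with 3 of 54 (5.56%) among the 385 strongest peaks, where the mitochondrial family had 7 of 14. For all protein-coding genes this share was 15.3%, and the bound on rank was chosen after the values were seen. The respiratory chain and ATP synthase genes had a site at 20 of 91 (22.0%, 14.7 to 31.5%), an interval that overlaps that of the members. Of their promoter sites, 1 of 16 (6.25%) was among the 385 strongest peaks. These differences were not tested.

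**Figure D4:**
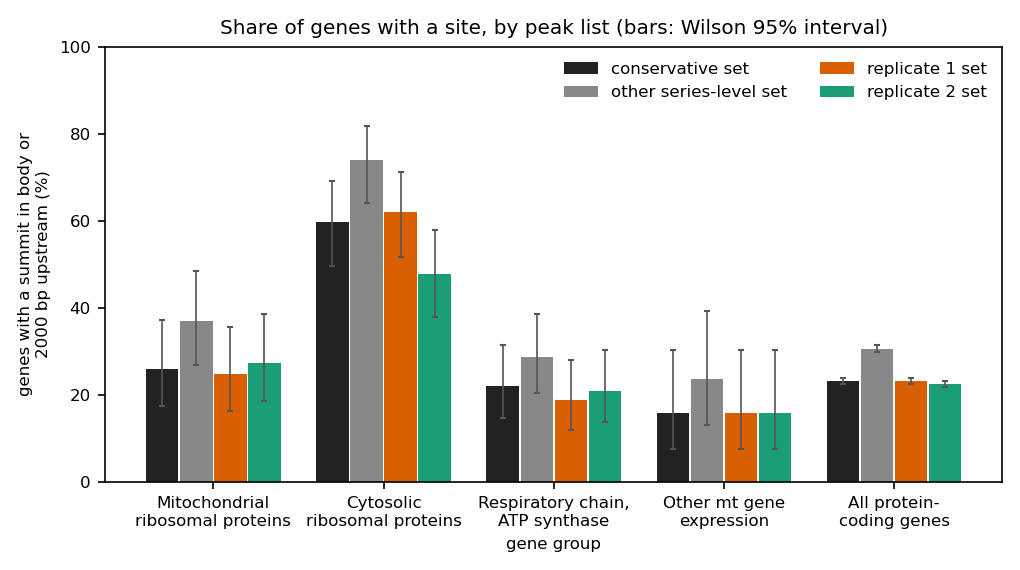
Percent of genes with a summit inside the gene or at most 2000 bp upstream, for 5 gene groups and 4 peak lists; bars are shares and error bars Wilson 95% intervals for counting error. The mitochondrial ribosomal protein genes lie between 24.7% and 37.0% over the lists, near all protein-coding genes (22.5% to 30.6%) and below the cytosolic ribosomal protein genes in each list.

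Other genes of mitochondrial gene expression served as a neighbouring group, with 38 genes matched. A conservative site was present at 6 of them (15.8%, 7.44 to 30.4%), each within 1000 bp of a start. The share was 23.1% over all protein-coding genes and 20.2% over other genes of matched length, both inside that interval. PNPase, an RNA-degrading enzyme, had the strongest at 1619 (rank 13, 81 bp downstream of its start), a strength within the range of the strongest members. LeuRS-m, a mitochondrial leucyl-tRNA synthetase, had 564 (rank 191), but its summit 858 bp upstream was nearer to Dhc64C. The others were mtSSB, which coats single-stranded mitochondrial DNA, at 253, ProRS-m at 233, CysRS-m at 80.4 and the elongation factor gene mEFTu1 at 78.3. No conservative site was counted at PolrMT, the mitochondrial RNA polymerase gene, or at TFAM, which encodes a packaging and transcription factor of mitochondrial DNA, nor at mtTFB1, mtTFB2, mTerf3, mTerf5 or mTTF.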

How the data were processed

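HLH3B-eGFP ChIP-seq peak lists from 2 replicate embryo collections of 1 group were used, on assembly dm6 per the labels. The 2 replicates are biological per the labels. The authors deposited thresholded and ranked candidate peak lists for each replicate and for 2 series-level sets. The signal column deposited with each peak was used to order, describe and, in an alternative, filter peaks inside 1 list, and its sizes in different lists were not compared. The deposited −log10 IDR showed how far a candidate lay from the threshold. The deposited text notes say that the thresholded lists drew on 1 further file. No aligner, peak caller or signal scale was given in the sources used here. Depth is unknown (the lists give no read counts), and intervals cover counting error only.

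Summits were placed on Ensembl release 115 genes without transposable elements (18164, of which 13945 protein-coding). The coordinates of all 73 members equalled those of RefSeq. Length matching weighted non-members over 10 length classes. Replicate signals of the conservative sites came from the candidate summit of highest signal within 100 bp. Members, lists and comparisons were chosen with earlier results of these data known. Every member with a conservative site is named, with full values for up to 15 promoter sites by signal (14 were present) and for distal sites, then 5 members found in other lists only, and every gene with a promoter site from the list of other mitochondrial genes (7 symbols of that list were not matched). A divergent pair is not reported here. Alternatives covered the other lists, each replicate alone, a stricter signal threshold, other windows and other matching. The steps were tested on simulated data. Python 3.11.15, numpy 2.4.6, pandas 2.3.3, scipy 1.17.1 and matplotlib 3.10.9 were used.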

Additional observations from a re-analysis of the deposited data

How the results depend on the processing

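Of 43 alternatives, 28 kept their result within 1.5 times the reported count or within its spread, and 15 moved it. The count of 19 members with a site fell to 11 in the upper part of the set by signal (background 14.5%). It fell to 2 with the gene body alone (10.2%) and to 6 when each summit went to its nearest start (14.2%). As shares of the 73 members, the counts of 2 and 6 lay below these backgrounds. Without 1 of the replicates the count was 18 to 20. The matched share of 12.8% was 23.7% when genes were matched on nearby starts. The 14 promoter sites became 22 in the other series-level set, 8 in the upper part by signal and 13 to 16 without 1 of the replicates. The median summit distance of -130.5 bp was -143 to -141 bp without 1 of the replicates. The percent upstream was 95.45 in the other set and 92.31 to 93.75 without 1 of the replicates. The median promoter rank of 934 was 2232 in the other set and 289 to 1308 without 1 of the replicates, lists of different length. With 100 bp either side of the summit TATCGATA was present in 2 windows and CAGCTG in 2. In the other set, over 23 windows, CAGCTG was present in 2, CACGTG in 1 and GATAA in 4. The cause of these shifts was not tested. No paired analysis was possible because the series holds 1 group. Unknown depth limits what the absence of a site can say, and 14 promoter sites give wide intervals.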
